A study of Mus musculus with 77 samples.

Results

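The mouse genome holds 4 Hox gene clusters, HoxA, HoxB, HoxC and HoxD, and their replication was followed in single blastomeres of cloned embryos. The regions were chosen by position alone. They are the 80-kb bins of the deposited replication profiles that overlap each cluster in genome build mm9, with the bins of the 0.5 Mb on either side as flanks, which are reported apart. This gave 60 bins out of 32973, with 10 in the clusters and 50 in the flanks. The HoxA cluster filled 3 bins on chromosome 6, from 52080001 to 52320000. The HoxB cluster filled 3 bins on chromosome 11, from 96000001 to 96240000. The HoxC cluster filled 2 bins on chromosome 15, from 102720001 to 102880000, and the HoxD cluster filled 2 bins on chromosome 2, from 74480001 to 74640000. All 60 bins were called in enough embryos to be tested. A bin at an edge of a cluster also holds some sequence of the neighbouring flank.

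The samples are cloned BDF1 mouse embryos. They came from somatic cell nuclear transfer (SCNT), where an oocyte receives a somatic nucleus in place of its own, and were cultured in vitro in CZB medium. Single-cell Repli-seq reads from the DNA copy number of 1 cell which parts of its genome had already been copied. Blastomeres were isolated by micromanipulation and sequenced after whole-genome amplification. There are 2 groups, a 4-cell one of 28 cells from 14 embryos and an 8-cell one of 49 cells from 12 embryos. All embryos of both groups share the strain, the nuclear transfer and the culture, and the set holds no fertilised embryo. The donor cell type is not given in the sources used here. Gene expression was not measured, so neither the activity of Hox genes nor the type of the blastomeres could be checked.

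Hox genes encode transcription factors that give segments along the head-to-tail axis their identity. In each cluster the genes stand in the order in which they are used along that axis, from head to tail. Cells that do not use a cluster keep it under Polycomb repression, with the histone mark H3K27me3. During S phase a genome is copied in a reproducible order, in which gene-rich, active regions tend to come early and gene-poor or silent regions late. Developmental gene clusters can change their place in this order as cells differentiate.

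The 4 clusters hold 39 Hox genes, which are 11 in HoxA, 10 in HoxB, 9 in HoxC and 9 in HoxD, and 6 microRNA genes, per the RefSeq annotation of build GRCm38.p6. That build differs from the one of the profiles, so it is used here only for names, gene order and sequences. In it HoxA has Hoxa13 at its high-coordinate end, while the other clusters have Hoxb13, Hoxc13 and Hoxd13 at the low-coordinate end and Hoxb1, Hoxc4 and Hoxd1 at the high-coordinate end. On the low-coordinate side of HoxA lie Skap2, Snx10, Cbx3, Hnrnpa2b1 and Nfe2l3, and on the high-coordinate side of HoxB lie their relatives Skap1, Snx11, Cbx1 and Nfe2l1. Smug1, Cbx5, Hnrnpa1 and Nfe2 lie next to Hoxc4, and Mtx2, Hnrnpa3 and Nfe2l2 lie on the Hoxd1 side of HoxD. The homeobox genes Evx1 and Evx2 follow Hoxa13 and Hoxd13.

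Some microRNAs of the clusters share a seed. Those 5p arms are printed with the seed, bases 2 to 8 counted from the 5′ end, in capitals. The same seed recurs in clusters replicated more often and less often than the autosomes in mid-S 8-cell cells, as described below. The 6 microRNA genes were all found in the RefSeq table of build GRCm38.p6, and their activity was not measured. The 3p arms found in the table and both arms of miR-615, from HoxC, have seeds that occur in 1 gene of the clusters each, and they are not printed.
miR-10a-5p, from HoxB: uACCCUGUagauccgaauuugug
miR-10b-5p, from HoxD: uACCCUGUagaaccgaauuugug
miR-196a-5p, from HoxB and HoxC: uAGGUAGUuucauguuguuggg
miR-196b-5p, from HoxA: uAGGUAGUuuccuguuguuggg
The 2 miR-10 sequences differ by U12A and the 2 miR-196 sequences by A12C, with positions counted from the 5′ end and the base of the first-named sequence given first.

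Each bin of a cell is replicated, not replicated or not called. A cell's place in S phase is its replication score, the percent of its called autosomal bins that are replicated. Cells with a score from 30 to 70% are called mid-S here, with 18 4-cell cells of 9 embryos (median score 57.3%) and 28 8-cell cells of 10 embryos (median 49.5%). Of the 30890 autosomal bins, 27057 to 29849 were called per 4-cell cell and 27235 to 29848 per 8-cell cell. The depth of reads is unknown, since the values are calls. The annotation gives 2 batches. The earlier one holds 10 mid-S 4-cell cells of 5 embryos, and the later one holds the other 8 mid-S 4-cell cells of 4 embryos and every 8-cell cell. Some cells stand apart because whole chromosomes, or runs of 20 Mb or more, are in a single state. Among mid-S cells, at least 95% of the called bins of an autosome were in 1 state in 2 cells at the 4-cell stage, both of embryo 6, and in 4 cells at the 8-cell stage. Over a score of 70%, 8 of the 9 4-cell cells and 10 of the 15 8-cell cells were of this kind. Results that turn on such cells or on a batch are given with and without them.

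**Figure D1:**
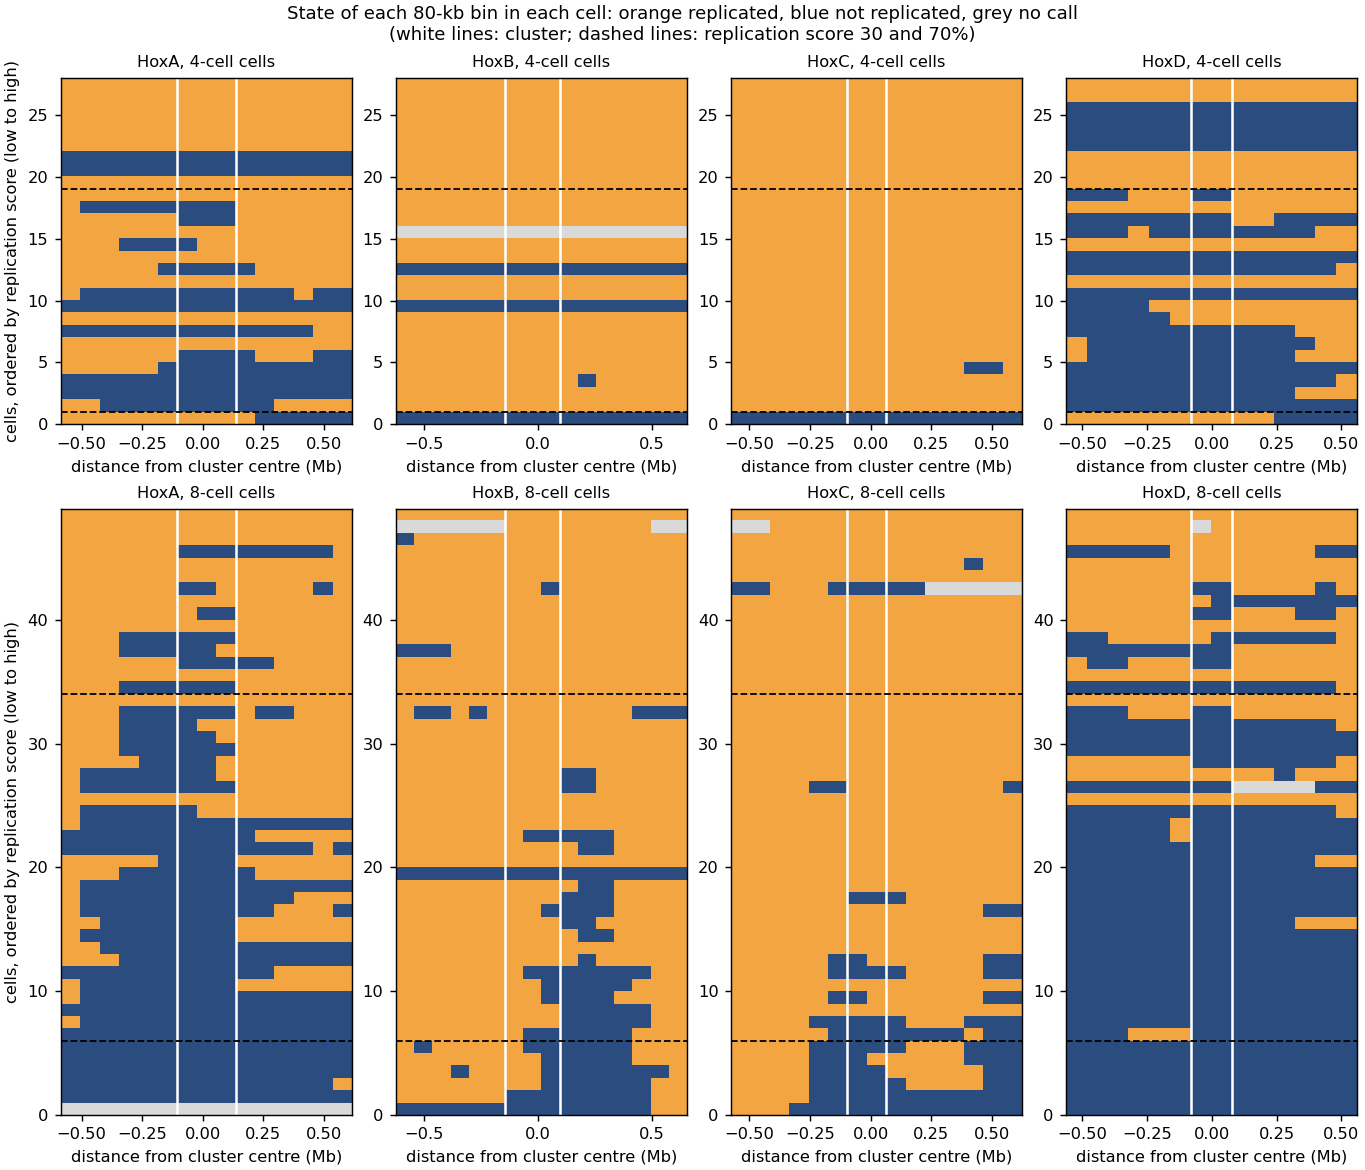
State of each 80-kb bin (columns, distance from the cluster centre in Mb) in each cell (rows, ordered by replication score from low to high) for the 28 4-cell cells (top) and 49 8-cell cells (bottom). Orange is replicated, blue not replicated and grey not called, white lines bound the cluster and dashed lines mark scores of 30 and 70%. HoxB and HoxC are mostly orange and HoxA and HoxD mostly blue at scores from 30 to 70%, while the lowest 4-cell row shows the opposite.

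The first comparison set each cluster against the rest of the genome of the same cell. In mid-S cells HoxB and HoxC were replicated more often than the autosomes and HoxA and HoxD less often. For each embryo the replicated percent of the cluster was averaged over its cells, and the autosomal percent of the same cells was subtracted. At the 8-cell stage all 4 differences passed the test, and at the 4-cell stage those of HoxC and HoxD passed it before adjustment.

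HoxA, the cluster of 11 genes whose members shape the hindbrain, limbs and reproductive tract, was late at the 8-cell stage. The embryos had from 0 to 50% of it replicated, with a median of 0. The mean was 12.2% ± 17.9 (SD, n = 10 embryos), which is -37.4 ± 17.6 points (SD) against the autosomes. It lay below the autosomes in 10 of 10 embryos (two-sided exact sign-flip test, p = 0.00195, the smallest the test can give; adjusted over 9643 autosomal windows of 3 bins by Benjamini-Hochberg, 0.00393). Being late is common, since 38% of those windows were called lower by the same rule. The 4-cell embryos spread from 0 to 100%, with a median of 50% and a mean of 38% ± 33.1 (SD, n = 9). The difference of -16.5 ± 29.9 points (SD) did not pass the test (two-sided exact sign-flip test, p = 0.133), although 8 of 9 embryos lay below. Embryo 9, with 1 cell, alone lay above, at 47.4 points, and without it the difference was -24.5 points (exact sign-flip p = 0.00781). In single cells HoxA was wholly replicated in 6 of 18 4-cell cells and in 2 of 28 8-cell cells, and wholly unreplicated in 11 and 21.

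HoxD, the cluster whose late-numbered genes pattern digits and the genital bud, had the lowest mean of the 4 at both stages. In 8-cell embryos, 8 of 10 had none of it replicated and the highest had 50%. The mean was 7.86% ± 17.3 (SD, n = 10), or -41.8 ± 17.5 points (SD) against the autosomes, below in 10 of 10 embryos (two-sided exact sign-flip test, p = 0.00195; adjusted over 14443 windows of 2 bins, 0.00407, with 37.6% of windows called lower). The 4-cell embryos ran from 0 to 100%, with a median of 0 and a mean of 25% ± 35.4 (SD, n = 9). The difference of -29.5 ± 32.2 points (SD) passed the test before adjustment (two-sided exact sign-flip test, p = 0.0312) but not over 14294 windows of 2 bins (adjusted p = 0.0606, with 25.9% of windows called lower). It was larger in the earlier batch, at -43.5 ± 12.2 points (SD, n = 5), than in the later batch, at -12 ± 42.8 points (SD, n = 4). Embryo 6, both of whose mid-S cells held single-state chromosomes, lay at 43.5 points, and without it the difference was -38.6 points (exact sign-flip p = 0.00781). Leaving out any of embryos 3, 9, 10, 11 and 14 ended the call, with p up to 0.0625 in the same exact test and a difference of -25.6 points without embryo 3. No cell of either stage had the 2 bins of HoxD in different states in mid-S.

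HoxB, whose low-numbered genes act in the hindbrain and in blood cells, was early. The 8-cell embryos had from 50 to 100% of it replicated, with a median of 100%. The mean was 89% ± 19.4 (SD, n = 10), or 39.3 ± 18.1 points (SD) above the autosomes, above in 9 of 10 embryos (two-sided exact sign-flip test, p = 0.00391; adjusted over windows of 3 bins, 0.00657, with 38.4% of windows called higher). Among 4-cell embryos the mean was 83.3% ± 35.4 (SD, n = 9), with a median of 100%. The difference of 29 ± 38.6 points (SD) did not pass (two-sided exact sign-flip test, p = 0.0664), and 7 of 9 embryos lay above. The low values came from the later batch, where the difference was 0.801 ± 44.9 points (SD, n = 4), against 51.5 ± 6.5 points (SD, n = 5) in the earlier one. In mid-S the cluster was wholly unreplicated in 3 cells, 2 at the 4-cell stage, in embryos 3 and 6, and 1 at the 8-cell stage, in embryo 11. In all 3 it lay in an unreplicated run of at least 20 Mb, of 66.9, 61.4 and 61.3 Mb, which also covered both flanks. Cells were also left out where the cluster lay in a run of at least 20 Mb in either state. At the 4-cell stage these were the 2 unreplicated cells and a further cell of embryo 6 with HoxB wholly replicated. Without them the 4-cell difference was 46.7 ± 9.93 points (SD, n = 7). Every 4-cell cell that remained had HoxB wholly replicated, so the direction was fixed by this choice and no p is given.

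HoxC, the cluster of 9 genes that ends in Hoxc4, was early as well. All 18 mid-S 4-cell cells had it wholly replicated, from a score of 37.6% upwards. The difference of 45.5 ± 8.99 points (SD, n = 9) therefore varied only with the autosomal percent. It lay above in 9 of 9 embryos (two-sided exact sign-flip test, p = 0.00391, the smallest the test can give; adjusted over windows of 2 bins, 0.0166, with 23% of windows called higher). Of the autosomal windows of 2 bins, 96.1% had a lower mean. The 8-cell embryos had from 33.3 to 100% of it replicated, with a median of 100%. The mean was 80.8% ± 26.7 (SD, n = 10), or 31.2 ± 23.7 points (SD), above in 8 of 10 embryos (two-sided exact sign-flip test, p = 0.0117; adjusted, 0.0178, with 37.7% of windows called higher). In 4 of 28 8-cell cells, of embryos 5, 6 and 7, HoxC was wholly unreplicated, which no mid-S 4-cell cell showed. Their scores were 30.1 and 34% in embryo 5, 30.2% in embryo 7 and 47.5% in embryo 6. As no mid-S 4-cell cell had a score below 37.6%, S-phase position and stage are not separated here.

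**Figure D2:**
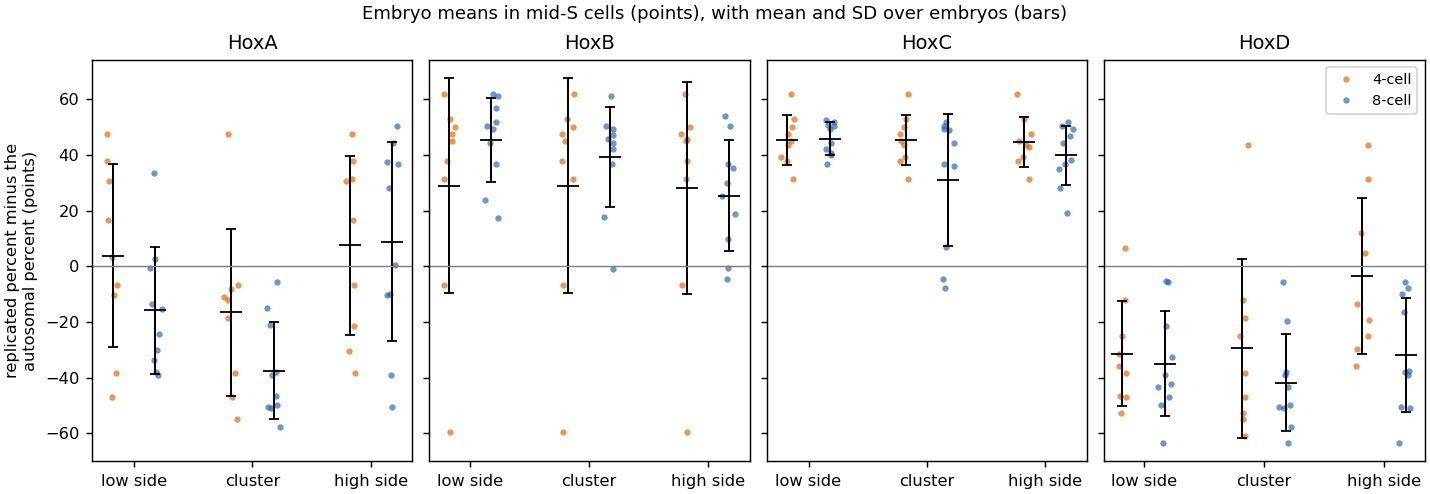
Replicated percent minus the autosomal percent of the same cells (points) for each cluster and the flank on either side, in mid-S cells. Each dot is 1 embryo (9 at the 4-cell stage, 10 at the 8-cell stage) and the bars are mean and SD over embryos. The cluster dots of HoxC at the 4-cell stage lie between 31.5 and 61.8, and those of HoxA and HoxD at the 8-cell stage all lie below 0.

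**Figure D3:**
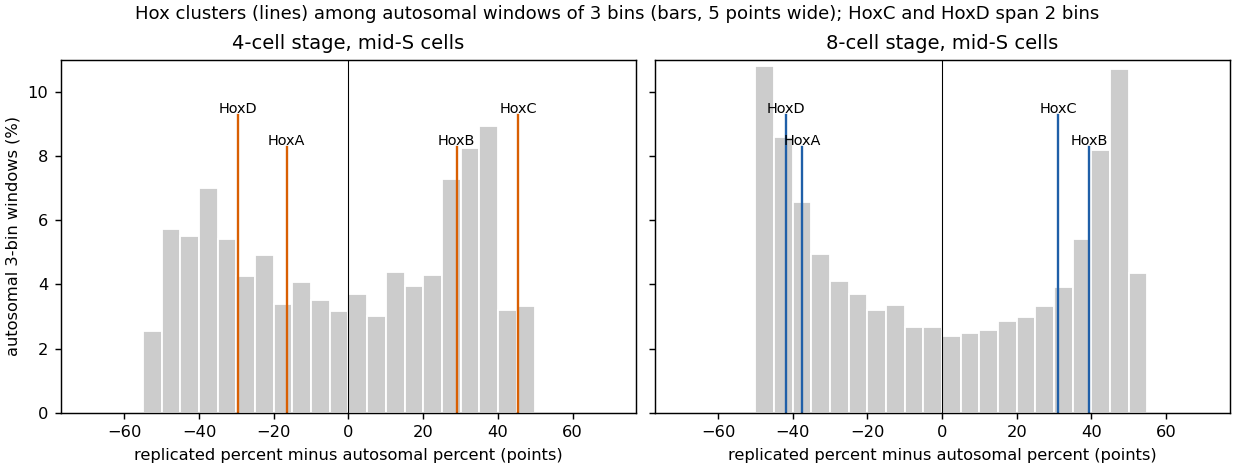
Share of autosomal windows of 3 bins (percent, bars 5 points wide) by their replicated percent minus the autosomal percent (points), over the embryo means of mid-S cells, with a line for each Hox cluster. HoxC and HoxD span 2 bins, and their values against windows of 2 bins are in the text. All 4 clusters lie among many other windows of the same value.

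Against these levels, the clusters were compared with their own flanks in the same cells. Set against both flanks together, HoxA had the lowest mean difference of all the clusters at both stages. At the later stage the bins of its low-coordinate flank nearest the cluster were late as well. HoxD also had a mean below its flanks at both stages, by less than HoxA. Against the high-coordinate flank alone, HoxD lay about as far below as HoxA did at the earlier stage. HoxB and HoxC did not pass the test against both flanks together.

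HoxA was replicated less at the 8-cell stage than its flanks in 10 of 10 embryos. The flanks had 46.1% replicated and the cluster 12.2%, a difference of -33.9 ± 27.6 points (SD; two-sided exact sign-flip test, p = 0.00195; adjusted over windows of 3 bins, 0.0174). Of 9643 autosomal windows of 3 bins set against their own flanks in the same way, 16.9% were called lower and 3.14% had a lower mean than HoxA. Along the locus the count of 28 mid-S cells with a bin replicated fell from 23 at the outermost bin of the low-coordinate side, from 51600001 to 51680000, to 2 at the bin that adjoins the cluster and 2 at the first cluster bin, which holds the low-coordinate end. It then rose to 4 and 7 in the next cluster bins, to 14 in the bin that follows the cluster and to 20 at 52640001 to 52720000. The fall on the low-coordinate side ran over all 6 bins of that flank, and the largest step on the high-coordinate side, the Hoxa13 and Evx1 side, was the one at the cluster's edge. Against the high-coordinate side alone HoxA differed by -46.2 ± 35.6 points (SD; exact sign-flip p = 0.00781), and against the low-coordinate side by -21.6 ± 30.4 points (SD; exact sign-flip p = 0.0469). The last of these no longer passed after leaving out any of 8 of the 10 embryos, with p up to 0.0938 in the same exact test, nor without the cells with single-state chromosomes (-15.7 points, p = 0.0547) or with scores of 40 to 60% (-19.8 points, p = 0.125).

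HoxA was lower at the 4-cell stage than its flanks in 6 of 9 embryos and equal in 3. The difference was -22.2 ± 20.7 points (SD; two-sided exact sign-flip test, p = 0.0312). It did not pass over all windows (adjusted p = 0.204), where 0% of windows of 3 bins were called in either direction. It also lost the unadjusted call in either batch alone, at -30.2 points (n = 4) and -15.8 points (n = 5), and after leaving out any of 6 of the 9 embryos (exact sign-flip p = 0.0625). With 4 or 5 embryos the test cannot go below 0.125 or 0.0625. The counts along the locus were flatter than at the 8-cell stage, from 14 of 18 cells at the outermost low-coordinate bin to 6 of 18 at the first cluster bin and 13 of 18 at 52560001 to 52640000. The minimum lay in the same cluster bin at both stages, shared at the 8-cell stage with the bin before it.

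HoxD lay within a wider late region. Its flanks in 8-cell embryos had 16.2% replicated, and the cluster was lower still, at -8.34 ± 11.7 points (SD), lower in 7 of 10 embryos and equal in 3 (two-sided exact sign-flip test, p = 0.0156; adjusted over windows of 2 bins, 0.0495, with 15.2% of windows called lower). This call ended with a score band of 40 to 60% (-5.47 points, exact sign-flip p = 0.125) and without the cells with single-state chromosomes (-6.79 points, exact sign-flip p = 0.141). From low to high coordinate the counts of mid-S cells with a bin replicated were 4, 4, 4, 6, 6 and 8 of 28 in the flank beyond Hoxd13, 3 and 3 in the cluster, and 4, 4, 3, 5, 6 and 9 in the flank beyond Hoxd1, where 4 bins were called in 27 cells. At the 4-cell stage the cluster lay 12 points below its flanks, at -12 ± 21.4 points (SD; exact sign-flip p = 0.133), and -18.2 points without embryo 6 (exact sign-flip p = 0.0156). There the high-coordinate flank was replicated more than the cluster, in 13 of 18 cells at its outermost bin against 5 of 18 in the cluster, a difference of cluster minus flank of -25.9 ± 18.4 points (SD; exact sign-flip p = 0.0156). That call ended with scores of 40 to 60% (-20.8 points, exact sign-flip p = 0.125) and in the later and the earlier batch alone (-22.9 and -28.3 points). Against the low-coordinate flank the cluster lay at 1.85 ± 28.8 points (SD; exact sign-flip p = 1), and without embryo 6 that difference was -7.29 points.

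HoxB held a gradient that continued beyond it. Its 3 bins at the 8-cell stage were replicated in 27, 24 and 21 of 28 mid-S cells from the Hoxb13 end to the Hoxb1 end. The next bins of the high-coordinate flank had 15, 11 and 15, with the minimum at 96320001 to 96400000, and the counts were back at 26 by 96640001. The cluster was replicated more than this flank by 13.9 ± 13.5 points (SD), in 8 of 10 embryos and equally in 2 (two-sided exact sign-flip test, p = 0.00781). Against both flanks together it differed by 4.69 ± 13.5 points (SD; exact sign-flip p = 0.328; adjusted over windows of 3 bins, 0.456). At the 4-cell stage all 3 bins of the cluster and all 6 of the low-coordinate flank had 15 of 17 cells replicated. A single bin of the high-coordinate flank, the one with the 8-cell minimum, had 14.

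At HoxC the counts dipped slightly at the 8-cell stage, but the difference from the flanks did not pass the test. The 4 outer bins of its low-coordinate flank were replicated in 28 of 28 mid-S cells, the 2 that adjoin the cluster in 26 and 22, and the cluster bins in 22 and 24. On the Hoxc4 side 24 cells were followed by 27 in each of 4 bins and then 22 and 21 in the outermost 2. The cluster minus its flanks was -11.5 ± 19.1 points (SD; two-sided exact sign-flip test, p = 0.125; adjusted over windows of 2 bins, 0.228), lower in 4 embryos, higher in 1 and equal in 5. With scores of 40 to 60% it was -10.3 ± 33.3 points (SD, n = 8) and did not pass either. No bin of the cluster or the low-coordinate flank was unreplicated in any mid-S 4-cell cell.

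**Figure D4:**
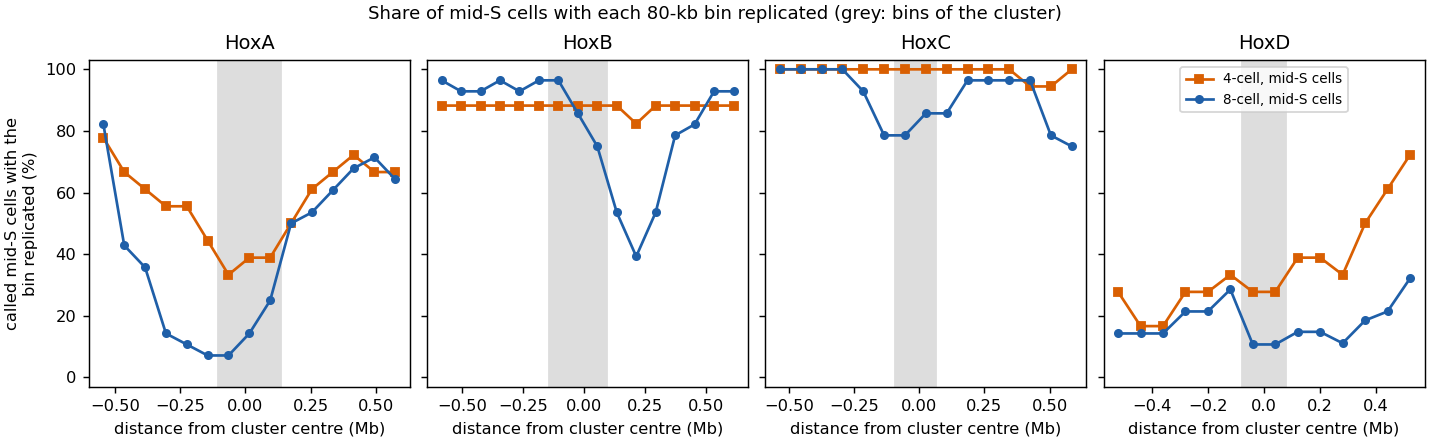
Percent of called mid-S cells with each 80-kb bin replicated, by distance from the cluster centre (Mb), for 4-cell (squares, 18 cells) and 8-cell cells (circles, 28 cells), with the bins of the cluster shaded. In 8-cell cells HoxA falls to 7.14% in its first bin and HoxB to 39.3% in the flank beyond its high-coordinate end.

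The flanks of HoxA and HoxB were unequal. Of called bins in 8-cell mid-S cells, 32.1% were replicated in the low-coordinate and 61.3% in the high-coordinate flank of HoxA, and 70.4% in the flank beyond Hoxb1 and 94.6% in the flank beyond Hoxb13. The flanks of HoxC and HoxD differed less, with 89.3% beyond Hoxc4 and 95.2% beyond Hoxc13, and 18.9% beyond Hoxd1 and 19% beyond Hoxd13. These differences between flanks were not tested, and which gene lies at which end rests on an annotation of another build.

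Tested bin by bin in a fit over 27903 autosomal bins (limma on embryo means, Benjamini-Hochberg adjusted p under 0.05), the 60 bins gave a like picture. At the 8-cell stage 29 of 60 were called higher than the autosomes, against 38.3% of all bins, and 19 lower, against 38.9% of all bins. The higher ones were all 3 bins of the HoxB cluster, all 6 of its low-coordinate flank, 4 of 7 of its high-coordinate flank, all 15 at HoxC and 1 of the HoxA low-coordinate flank. The lower ones were the 3 bins of the HoxA cluster, 3 of its low-coordinate flank, the 2 of the HoxD cluster and 11 of its 12 flank bins. At the 4-cell stage 31 were higher, against 35.1% of all bins, and 10 lower, against 32.9%. There the first bin of the HoxA cluster was called lower and none of its 12 flank bins was called in either direction. The median over the 60 bins was 27.5 points in 4-cell and 17.2 points in 8-cell embryos, against 1.05 and -2.28 points over all bins. Nothing particular to the Hox regions is read from these shares. With an exact sign-flip test per bin in place of limma, 15 bins were higher and 2 lower at the 4-cell stage, and 29 and 18 at the 8-cell stage.

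Within a cell the clusters kept an order at the 8-cell stage. HoxA and HoxD were each less replicated than HoxB and than HoxC in 10 of 10 embryos (4 pairs, differences from 68.6 to 81.1 points in size, two-sided exact sign-flip test, p = 0.00195 for each). No mid-S 8-cell cell had HoxA or HoxD wholly replicated while HoxB or HoxC was wholly unreplicated, whereas 14 to 19 of 28 cells showed the reverse for the 4 pairs. HoxA minus HoxD, at 4.37 ± 8.19 points (SD; exact sign-flip p = 0.25), and HoxB minus HoxC, at 8.13 ± 27.9 points (SD; exact sign-flip p = 0.438), did not pass, so the order within each of these pairs was not resolved. The state with HoxB and HoxC wholly replicated and HoxA and HoxD wholly unreplicated was found in 11 of 28 8-cell cells, of 8 embryos, and in 8 of 18 4-cell cells, of 5 embryos. In 4-cell embryos the same 4 pairs differed in the same direction, by 50.9 to 75 points in size (two-sided exact sign-flip test, p from 0.00781 to 0.0312). The pairs with HoxB lost their call after leaving out any of several embryos (exact sign-flip p = 0.0625). No pair passed with scores of 40 to 60%, where exact sign-flip p ran from 0.125 to 0.5, or in either batch alone. In the later batch HoxA minus HoxB was -25 points and HoxB minus HoxD 12.5 points, against -71.7 and 95 points in the earlier one. In 1 4-cell cell, of embryo 6, HoxD was wholly replicated and HoxB wholly unreplicated, and that cell held 8 autosomes in a single state.

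Cells of the same embryo often disagreed on HoxA at the 4-cell stage. Of 7 embryos with at least 2 mid-S cells, 5 held both a cell with HoxA wholly replicated and a cell with it wholly unreplicated. At the 8-cell stage 1 of 9 such embryos held both extremes. For HoxD the embryos with both extremes were 3 of 7 and 2 of 9, for HoxB 1 of 6 and 1 of 9, and for HoxC 0 of 7 and 3 of 9. Sister cells of an embryo differed in score, so these counts include differences in S-phase position.

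Cells outside mid-S, at the start and the end of S phase, are given as counts with no test. In the 6 8-cell cells with a score under 30%, from 12.9 to 26.7%, HoxA was unreplicated in 5 of 5 called cells and HoxD in 6 of 6, flanks of HoxD included. HoxB had already begun, with its 3 bins replicated in 4, 3 and 0 of 6 cells from the Hoxb13 to the Hoxb1 end. Its low-coordinate flank was replicated in 4 or 5 of 6 cells in each bin. HoxC had barely begun, with 0 and 1 of 6 cells, while the 3 outermost bins of its low-coordinate flank were replicated in 6 of 6 and the fourth in 5. The 2 bins of that flank that adjoin the cluster were replicated in 0 of 6, as was the first cluster bin. Over these 6 cells 38.9% of HoxB and 8.33% of HoxC cluster bins were replicated, against a mean autosomal percent of 17%. HoxC thus lay below the autosomes in these few cells, where HoxB lay above, but its value rests on 1 replicated call and was not tested. Single-state autosomes were present in 3 of these 6 8-cell cells. The 1 4-cell cell in this range, of embryo 8 with a score of 12.6%, had HoxA and HoxD wholly replicated and HoxB and HoxC wholly unreplicated. No called 8-cell cell in this range had HoxA or HoxD replicated. HoxB was wholly unreplicated in 2 of these 6 8-cell cells as well, and HoxC in 5. In the 4-cell cell 16 autosomes were in a single state, and HoxB and HoxC lay in unreplicated runs of 37 and 35.4 Mb.

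Late in S phase HoxA and HoxD were the last of the 4 clusters to be copied in 8-cell cells. Of the 15 8-cell cells with a score over 70%, HoxA was wholly replicated in 8, partly in 3 and not at all in 4, and HoxD wholly in 8, partly in 2 and not at all in 5. HoxB was wholly replicated in 14 and HoxC in 14. Over these cells 60% of called bins were replicated in the HoxA cluster and 90.6% in its flanks, against a mean autosomal percent of 84.9%, and 58.6% in the HoxD cluster and 76.7% in its flanks. The highest score of an 8-cell cell with HoxA still wholly unreplicated was 93.7%, in embryo 9, a cell with 15 single-state autosomes. For HoxD it was 87.7%, in embryo 3. The lowest score of an 8-cell cell with HoxA or HoxD wholly replicated was 54.1%, in embryo 1, while for HoxB and HoxC it was 30.2 and 32.3%. Cells above those scores were not all so, since HoxB was wholly unreplicated in a cell at 49.3% and HoxC in cells up to 87.7%. At the 4-cell stage HoxB and HoxC were replicated in 9 of 9 cells over 70%. HoxA was unreplicated in 2 of 9, both of embryo 6 and within unreplicated runs of 26.4 and 26.1 Mb, and HoxD in 4 of 9, of embryos 2 and 4 and within runs of 139 to 179 Mb. In those cells the state of the cluster is that of most of its chromosome.

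**Figure D5:**
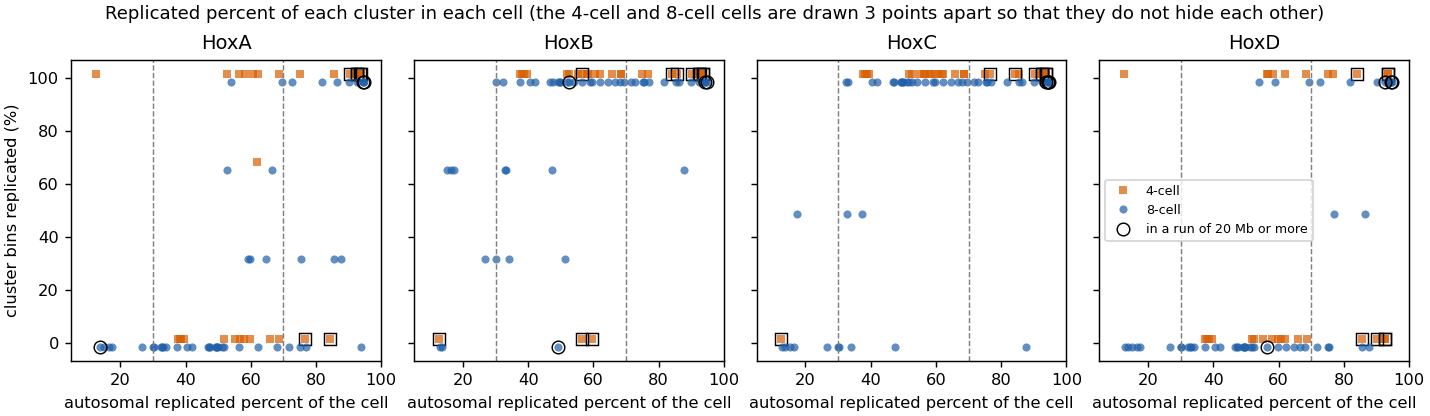
Replicated percent of the bins of each cluster (vertical) against the autosomal replicated percent of the cell (horizontal) for every cell, with squares for 4-cell and circles for 8-cell cells and a black outline where the cluster lay in a single-state run of at least 20 Mb. The stages are drawn 3 points apart on the vertical axis and dashed lines mark 30 and 70%. 8-cell cells pass from unreplicated to replicated at lower percents in HoxB and HoxC than in HoxA and HoxD. Under 30% HoxC is mostly unreplicated.

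In many cells HoxA was a short unreplicated island. An island is counted here where the whole cluster was unreplicated and the unreplicated run around it measured at most 1 Mb. In mid-S 8-cell cells HoxA formed one in 11 of 28 cells, of 6 embryos, with runs of 320 to 880 kb and a median of 640 kb. Of 9903 autosomal windows of 3 bins, 3.95% did so in as many cells, and the median window did so in 1 cell. Over a score of 70% HoxA formed an island in 4 of 15 8-cell cells, of 3 embryos, with runs of 400 to 640 kb (3.61% of windows in as many cells). HoxD formed one in 4 of these 15 cells, of 2 embryos, and in 3 of the 4 the run was exactly the 160 kb of the cluster (5.47% of windows of 2 bins in as many cells). In mid-S 8-cell cells HoxD formed an island in 6 of 28 cells, of 5 embryos (14.2% of windows in as many cells). The scores of those 3 cells were 75.2, 85.4 and 87.7%, in embryos 4 and 3. In mid-S 4-cell cells HoxA formed an island in 6 of 18 cells, of 5 embryos, with runs of 240 to 880 kb (2.13% of windows in as many cells), and HoxD in 5 cells, of 5 embryos, with runs of 160 to 880 kb (5.49%). HoxB formed no island in a mid-S cell of either stage, and HoxC formed 4, of 240 to 560 kb, all at the 8-cell stage (22.6% of windows in as many cells).

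The last comparison asked whether the stages differ. With all mid-S cells, no cluster passed the test between them. The difference of the 8-cell minus the 4-cell stage in replicated percent relative to the autosomes was -20.9 points for HoxA (two-sided exact permutation of embryo labels, 9 against 10 embryos, p = 0.0704), 10.3 points for HoxB (p = 0.504), -14.3 points for HoxC (p = 0.121) and -12.3 points for HoxD (p = 0.333), by the same exact test. Adjusted over all windows of the same number of bins these p-values were 0.38, 0.767, 0.463 and 0.645, and 0.172% of windows of 3 bins and 0.108% of windows of 2 bins were called later at the 8-cell stage, and 0.0107% and 0.00717% earlier. With the 4-cell embryos limited to the 4 of the later batch, the differences were -25.4 points for HoxA (exact permutation p = 0.026) and 38.5 points for HoxB (p = 0.028), and neither was adjusted. Leaving out 4-cell embryo 10 or 11 or 8-cell embryo 1 or 12 also gave HoxA a call (exact permutation p down to 0.0213). With the earlier batch as the 4-cell group they were -17.3 points for HoxA (exact permutation p = 0.271) and -12.2 points for HoxB (p = 0.158). For HoxB the direction therefore turned with the batch, and it also turned with cells left out where the cluster lay in a long run (-6.11 points) and without 4-cell embryo 3 (-0.741 points). For HoxD the difference was -29.8 points in the later batch (exact permutation p = 0.0719) and 1.7 points against the earlier one (p = 0.849). For HoxC it was -5.75 points with scores of 40 to 60% (exact permutation p = 0.999).

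Bin by bin, 0 of the 60 bins were called between the stages (limma, Benjamini-Hochberg over 27903 bins), where 0.179% of all bins were called earlier and 0.588% later at the 8-cell stage. With an unadjusted p under 0.05 there were 7 of the 60, against 13.8% of all bins, 4 of them in or beside HoxA and 3 in the high-coordinate flank of HoxD. Those beside HoxA were the 3 bins of the low-coordinate flank nearest the cluster, at -36.4 (SE 14.5), -37.9 (SE 14.3) and -39.5 points (SE 10.8), with limma adjusted p of 0.264, 0.238 and 0.0911. In the later batch alone 2 of the 60 bins were called lower at the 8-cell stage. The flank beyond Hoxd1 went from -3.58 points against the autosomes at the 4-cell stage to -32 points at the 8-cell stage, a difference of -28.4 points (two-sided exact permutation, p = 0.0211, not adjusted, 1 of 24 such tests between the stages). It was -42.9 points in the later batch (exact permutation p = 0.014) and -16.8 points against the earlier one (p = 0.139). The call also ended without the cells with single-state chromosomes (-21.7 points, exact permutation p = 0.0984) and with scores of 40 to 60% (-31.8 points, p = 0.0573). HoxB minus its high-coordinate flank rose from 0.794 to 13.9 points, a difference of 13.1 points (two-sided exact permutation, p = 0.00418, not adjusted). In 8 of 9 4-cell embryos it was 0, as cluster and flank were wholly in the same state in each cell. No autosomal percent enters this difference, and the median score was 57.3% in 4-cell and 49.5% in 8-cell mid-S cells. It was run under none of the alternatives, so its dependence on score, batch or single embryos was not tested.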

How the data were processed

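Profiles of 77 cells of 26 embryos were used. The states 1, -1 and 0 that the authors deposited per 80-kb bin are of no unit and were read as replicated, not replicated and uncalled. The percent of autosomal calls that are 1 matches the replication score, a percent, in the authors' annotation to within 4.98e-09. That deposited annotation also gives the embryo, the batch and a noise score per cell, which was 0.226 to 0.805, per the file headers. Per the submitters' processing notes, mm9 is the build. Aligner, state caller and sequencing depth were not given in the sources used here. Neighbouring bins were not taken as independent.

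The members and lists were chosen with earlier results of these data known. The rule for what is named was every bin of the 4 clusters and their flanks, whatever its value, and Hox genes were not assigned to bins because no annotation of the build was used. Gene order, neighbouring genes and microRNAs come from RefSeq on GRCm38.p6, and no coordinate was taken from it. Promoters were not printed, and loci of Polycomb and Hox cofactor genes were not analysed here. Cells were averaged per embryo, and the embryos named in the annotation are the replicates. Levels were tested by exact sign-flip over embryos and stages by exact permutation of embryo labels, both two-sided. As the background, the same tests ran on all non-overlapping autosomal windows of 2 or 3 bins with a value in every mid-S embryo, with 6 bins on each side as flanks and Benjamini-Hochberg adjustment at 0.05. Single bins were fitted with limma 3.58.1 (R 4.3.3) over 27903 autosomal bins. Other steps ran in Python 3.11.15, with matplotlib 3.10.9 for the figures and scipy 1.17.1, pandas 2.3.3 and numpy 2.4.6 for the rest. Tested on simulated data with the stage design and 200 of 27903 bins changed, the limma test recovered 0, 28, 58 and 84% of changes of 20, 40, 60 and 80 points, and 5 of its 90 calls were unchanged bins. Alternatives were the score band, the batch, cells with single-state chromosomes, long runs, bin overlap, weighting by cell, a covariate, a filter and leaving out each embryo.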

Additional observations from a re-analysis of the deposited data

Results flagged for a closer look

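In 32 groups of 9 or 10 embryos, single embryos were compared with the others by Dixon's ratio of gap to range. Its nominal rate of about 1 group in 20 assumes normally distributed values. The embryo values are bounded and often equal, so that rate need not hold here and the marks are descriptive. Four-cell embryo 9, with 1 mid-S cell, had HoxA at 47.4 points above its autosomes, where the other 8 embryos lay below 0. Four-cell embryo 6, whose 2 mid-S cells each held 8 single-state autosomes, had HoxD at 43.5 points above its autosomes and 37.5 points above its flanks. Eight-cell embryo 6 had HoxB at 34.6 points above its flanks and HoxD at -37.5 points against its own. The values of HoxB against its flanks in 4-cell embryo 11, at 3.85 points, and of HoxC against its flanks in 4-cell embryo 13, at 3.85 points, stand out because all other embryos lay at 0, and each comes from a single cell with 1 or more flank bins unreplicated.

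Of 24 tests between the stages, 2 had an unadjusted p under 0.05. HoxB minus its high-coordinate flank differed by 13.1 points (exact permutation p = 0.00418), and the high-coordinate flank of HoxD by -28.4 points relative to the autosomes (exact permutation p = 0.0211). Neither was adjusted for the number of tests, and the first was run under none of the alternatives.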

How the results depend on the processing

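At the 8-cell stage the differences of the 4 clusters from the autosomes, of HoxA from its flanks, and of HoxA and HoxD from HoxB and HoxC kept their direction under every alternative run and their call under each that gave a p, which counting each cell once did not. The call of HoxD against its flanks ended with scores of 40 to 60% (-5.47 points) and without cells with single-state chromosomes (-6.79 points). Results of the 4-cell stage moved more, and the causes were not tested. HoxA against its flanks lost its call with scores of 40 to 60% (-24.3 points), in the later batch (-30.2 points) and in the earlier batch (-15.8 points). HoxD against the autosomes lost it in the same 3 settings (-22.9, -12 and -43.5 points). HoxC lost it in the later batch (38 points) and the earlier batch (51.5 points), where 4 embryos cannot give a p below 0.125 and 5 none below 0.0625. HoxB against the autosomes stood at 46.7 points without long runs. Every 4-cell cell left there had HoxB wholly replicated, so that call was fixed in advance. HoxD against its flanks gained a call without cells with single-state chromosomes (-18.2 points). The count of higher bins at the 4-cell stage was 15 with scores of 40 to 60%, 15 in the later batch and 15 with the exact test per bin, and of lower bins 4, 3 and 2. The use of the earlier batch alone was chosen after seeing the data.

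Between the stages, HoxA gained a call in the later batch (-25.4 points) and with bins at least 50% covered (-25.6 points), and also without any of 4 of the 19 embryos (exact permutation p down to 0.0213). HoxB gained one in the later batch (38.5 points) and turned without long runs (-6.11 points) and against the earlier batch (-12.2 points). HoxD turned without cells with single-state chromosomes (1.9 points) and against the earlier batch (1.7 points). The bins called later at the 8-cell stage were 2 in the later batch and 1 without cells with single-state chromosomes.

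The HoxB flanks gained calls in both directions. The high-coordinate flank gained one without long runs (-20.5 points) and against the earlier batch (-24.6 points), and the low-coordinate flank in the later batch (44.5 points). Leaving out long runs removed the 2 4-cell cells in which the HoxB high-coordinate flank was wholly unreplicated. The HoxC low-coordinate flank gained a call with scores of 40 to 60% (5.7 points) and in the later batch (7.89 points). That flank was replicated at 100% in every 4-cell embryo and at a mean of 95.6% in 8-cell embryos. A positive difference there could therefore come only from the autosomal percent subtracted, and not from earlier replication of the flank. The HoxA low-coordinate flank gained a call without cells with single-state chromosomes (-28.6 points).

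Directions also turned in differences that had not passed a test. For the flanks between the stages these were the HoxA high-coordinate flank (-4.19 points with scores of 40 to 60%, -14.7 in the later batch, -5.58 without cells with single-state chromosomes, -0.574 with bins at least 50% covered), the HoxB low-coordinate flank (-6.15 points against the earlier batch), the HoxB high-coordinate flank (10.8 points with scores of 40 to 60%, 24.6 in the later batch), the HoxC low-coordinate flank (-0.682 points without cells with single-state chromosomes, -5.6 against the earlier batch) and the HoxC high-coordinate flank (3.62 points with scores of 40 to 60%, 1.98 in the later batch). The HoxD low-coordinate flank turned to 2.64 points without cells with single-state chromosomes, 0.204 with each cell counted once and 3.55 against the earlier batch. Within the 4-cell stage, the HoxA flanks turned in the earlier batch (-3.51 points on the low-coordinate and -5.18 on the high-coordinate side), the HoxD high-coordinate flank in the later batch (10.9 points), and HoxD against its low-coordinate flank without cells with single-state chromosomes (-7.29 points) and in the earlier batch (-5 points). HoxA minus HoxD at the 8-cell stage turned without cells with single-state chromosomes (-2.47 points) and with bins at least 50% covered (-0.833 points).

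Leaving out each embryo in turn gave, at the 4-cell stage, -24.5 to -11.7 points for HoxA, 24.9 to 40.04 for HoxB and -38.6 to -25.6 for HoxD against the autosomes, and -25 to -18.8 for HoxA and -18.2 to -8.85 for HoxD against their flanks. Between the stages it gave -25.7 to -12.9 points for HoxA and -0.741 to 14.8 for HoxB. For the flanks it gave -4.48 to 7.82 points (HoxA high-coordinate), -13.7 to 1.46 (HoxB high-coordinate), -1.36 to 2.44 (HoxC low-coordinate) and -6.9 to 1.12 (HoxD low-coordinate) between the stages. Within the 4-cell stage it gave -1.62 to 10.2 points for the HoxA low-coordinate flank, -9.46 to 0.46 for the HoxD high-coordinate flank and -7.29 to 5.21 for HoxD against its low-coordinate flank.

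No paired analysis was possible because the embryos of the 2 stages are different embryos and their numbers do not pair them. Read depth is unknown, an 80-kb bin does not resolve single Hox genes, and a cluster spans 2 or 3 bins, so its level rests on few calls per cell. The earlier batch holds no 8-cell cell.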

Other observations

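A single 8-cell cell late in S phase had all 4 clusters incompletely replicated. It belongs to embryo 3 and had a score of 87.7%, with HoxB at 66.7%, HoxA at 33.3%, and HoxC and HoxD at 0% of their bins, while the flanks stood at 100% for HoxB, 91.7% for HoxA and 91.7% for HoxD. The flanks of HoxC stood at 37.5% of the bins called there. No autosome of this cell was in a single state, and the unreplicated runs around HoxC and HoxD measured 0.4 and 0.16 Mb. The HoxC run ended at uncalled bins on its high-coordinate side, so it may have been longer. Another cell of the same embryo, with a score of 85.4%, had HoxD at 0% beside flanks at 83.3% and HoxA at 33.3% beside flanks at 100%, and 2 of its autosomes were in a single state. These 2 cells were picked after their values had been seen, so they are examples and no group.

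At the other end of S phase, 2 8-cell cells of embryo 11 with scores of 12.9 and 13.7% had none of the called clusters begun (HoxA was uncalled in the first), while the flanks of HoxB stood at 15.4 and 61.5% and those of HoxC at 23.1 and 30.8%. In the second, HoxA lay in an unreplicated run of 85.5 Mb.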
